A study of Mus musculus with 24 samples.

Results

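The genes described here encode the machinery of mitosis: 44 genes for mitotic cyclins and kinases, kinetochore and spindle proteins, motors, and the proteins of anaphase and cytokinesis. They were selected by gene name from the 45706 genes of the deposited table, with no threshold on measured values but with earlier results of these data known, and all 44 were found. Expression had been measured by RNA sequencing in primary fibroblasts from mouse embryos (MEFs) of strain C57B1/6, spelled as in the labels. The cells were either wild type (WT) or cGAS KO, which lack the cytosolic DNA sensor encoded by Mb21d1, and the series' title places them in a study of cGAS in senescence, a durable exit from the cell cycle after long culture or damage. All cells were cultured under 20% oxygen and sampled on days 33, 36 and 42, labelled as passages 11, 12 and 14. Age of the embryos, number of embryos and number of culture lines are not stated in the labels.

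A cell enters mitosis when Cdk1 bound to its cyclins becomes active, chromosomes condense, and kinetochores attach them to a spindle built of microtubules and motors. The spindle checkpoint holds anaphase back until attachment is complete; the anaphase-promoting complex (APC/C) with Cdc20 then marks securin and cyclin B for destruction, separase cuts cohesin, and the cell divides. Transcripts of many of these genes peak in G2 and mitosis, driven by the MuvB complex with B-Myb and FoxM1, and are held low in arrested cells by the DREAM complex.

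The 24 samples comprised 4 numbered ones per genotype and day, but the 4 agreed within sampling noise (mean chi-square per degree of freedom 0.832 to 0.843 over all genes, 0.809 to 1.15 over the 44) and were counted as 1 sample. This left 6 libraries of 25651250 to 48717439 counts, n = 3 per genotype, with the days as replicates; nothing states that the days were separate cultures, so a p-value here reflects no more than how these libraries spread, which may be technical. Mb21d1 stood at 4.74, 4.08 and 4.82 CPM in WT on days 33, 36 and 42 and at 0.239, 0 and 0.127 CPM in KO. CPM is the count scaled to the library's total over the tested genes multiplied by its TMM normalization factor (0.927 to 1.08). Xist, the RNA of the inactive X chromosome in female cells, stood at 0.0573 to 0.363 CPM in WT and 465 to 641 CPM in KO, so that sex and genotype cannot be told apart. All 10 fibroblast markers were detected, summing to 50682 to 60826 CPM; their median log2 difference was -0.66, and Dcn, a matrix proteoglycan, averaged 88.6 (WT) against 12.9 CPM (KO; adjusted p = 0.0658). The 16 macrophage markers summed to 165, 35.8 and 11.1 CPM (WT) against 75.8, 8.73 and 7.15 (KO), the 7 endothelial markers to 15.6 to 16.0 and 7.53 to 12.9, and the 5 epithelial markers to 2.15 to 4.61 and 2.99 to 4.52. The 8 skeletal muscle markers summed to 90.0 to 145 CPM in WT and 45.8 to 79.9 in KO, with the defining Myod1 and Myf5 at 0 in every library, and the 8 neural and glial markers to 41.3 to 57.0 and 44.7 to 59.6. Mitochondrial transcripts took 1.1 to 2.38% of WT counts and 0.694 to 1.27% of KO counts. The part of these differences in the results below was not tested.

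Promoter sequence shows what the genes share apart from their names. RefSeq promoters (GRCm38.p6, 250 bases before the start and 50 after) were found for 37 of the 44 genes, 39 promoters in all, since Ect2 and Prc1 each have a pair of overlapping windows. The cell cycle genes homology region (CHR, searched as TTTGAA or TTCGAA on both strands), the element that MuvB contacts, was present in 29 of the 39 promoters (74.4%), against 19.2% of all 32851 promoters in the table and 13.8% of those of tested genes. The CCAAT box (CCAAT on both strands), the element bound by NF-Y, was in 30 of 39 (76.9%) against 37.4% of all promoters, and 53.8% against 11.7% held 2 or more. CHR and CCAAT box stood together in 66.7% of these promoters and in 7.52% of all. The E2F site (searched on both strands as TTGGCGC, with the variant forms TTCCCGC, then also TTGCCGC, and finally TTCGCGC), typical of S phase genes, was in 15.4% against 9.57% of all promoters and 15.8% of those of tested genes. Base composition was not matched in these shares, and a match of letters is not evidence of binding.

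Upstream matches are given for Cdk1 and the 4 other genes with the smallest adjusted p among those with a CHR in the 150 bases before the RefSeq start, which are shown (GRCm38.p6), 5′ to 3′ on the gene's strand. Capitals mark CHR and CCAAT matches on either strand (TTCAAA and ATTGG are the reverse complements).
Cdk1 (chr10:69352913-69353062, minus strand): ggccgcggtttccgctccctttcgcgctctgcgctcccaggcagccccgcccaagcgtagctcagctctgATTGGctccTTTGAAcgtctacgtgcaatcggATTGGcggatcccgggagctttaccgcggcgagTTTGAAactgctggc
Espl1 (chr15:102296143-102296292, plus strand): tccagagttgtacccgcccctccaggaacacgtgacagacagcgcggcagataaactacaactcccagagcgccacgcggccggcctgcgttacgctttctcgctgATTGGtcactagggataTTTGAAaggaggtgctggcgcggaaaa
Ect2 (chr3:27153879-27154028, minus strand): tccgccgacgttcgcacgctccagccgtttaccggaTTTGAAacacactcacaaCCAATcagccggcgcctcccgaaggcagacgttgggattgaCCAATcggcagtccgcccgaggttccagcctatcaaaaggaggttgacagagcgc
Prc1 (chr7:80294326-80294475, plus strand): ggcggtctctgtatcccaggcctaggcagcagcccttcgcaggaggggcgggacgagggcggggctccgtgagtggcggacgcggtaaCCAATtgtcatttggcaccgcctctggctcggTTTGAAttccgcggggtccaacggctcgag
Kif2c (chr4:117178773-117178922, minus strand): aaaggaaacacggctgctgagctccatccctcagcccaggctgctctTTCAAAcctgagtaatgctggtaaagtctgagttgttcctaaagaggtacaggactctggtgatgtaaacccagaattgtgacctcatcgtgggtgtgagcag
Cdk1 holds 2 CHR matches and 2 CCAAT boxes within this stretch, Espl1 and Prc1 1 of each, Ect2 1 CHR with 2 CCAAT boxes, and Kif2c 1 CHR on the opposite strand and no CCAAT box. By GENCODE M21 the Kif2c stretch, with its CHR, lies inside the gene, whose annotated start is further upstream. The last bases of the Cdk1, Espl1 and Prc1 stretches lie at or just after the annotated gene start. They hold the Espl1 CHR and the Cdk1 CHR nearer the RefSeq start, and the Prc1 CHR spans the annotated start. Only the other Cdk1 CHR and the Ect2 CHR lie wholly before the annotated gene start.

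More often the CHR lay just after the start. Of 39 CHR matches, counting each window of Ect2 and Prc1, 20 began at bases 1 to 50 after it, and 18 genes held a CHR wholly after the start, against 12 with a CHR wholly before it and 3 with both. For 7 roles, the first gene listed with such a CHR is shown as 30 bases of the gene's strand (GRCm38.p6), with each CHR in capitals; Anln holds 2, on opposite strands.
Ccnb2 (chr9:70421533-70421562, minus strand): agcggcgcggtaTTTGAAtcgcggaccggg
Plk1 (chr7:122159453-122159482, plus strand): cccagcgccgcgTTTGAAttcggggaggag
Bub1 (chr2:127831828-127831857, minus strand): ctgcgcggggaaTTCGAAtcgccggcggcc
Cenpa (chr5:30666890-30666919, plus strand): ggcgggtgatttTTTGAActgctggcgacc
Kif23 (chr9:61946780-61946809, minus strand): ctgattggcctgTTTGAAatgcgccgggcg
Hmmr (chr11:40733412-40733441, minus strand): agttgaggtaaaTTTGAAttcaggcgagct
Anln (chr9:22389168-22389197, minus strand): ggggcgctgaaaTTCAAAtTTTGAAcggcc
The CCAAT boxes lay on the other side of the start: 47 of 72 matches lay within the 100 bases before it, with a median first base of -64. The 10 genes with a promoter but no CHR in these letters were Birc5, Ccnb1, Cenpe, Cks2, Mad2l1, Mybl2, Nek2, Nuf2, Nusap1 and Pttg1. Their median log2 difference between KO and WT, described next, was 0.72 (range 0.03 to 1.14), beside 0.76 (0.37 to 1.15) for the 27 genes with a CHR.

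**Figure D1:**
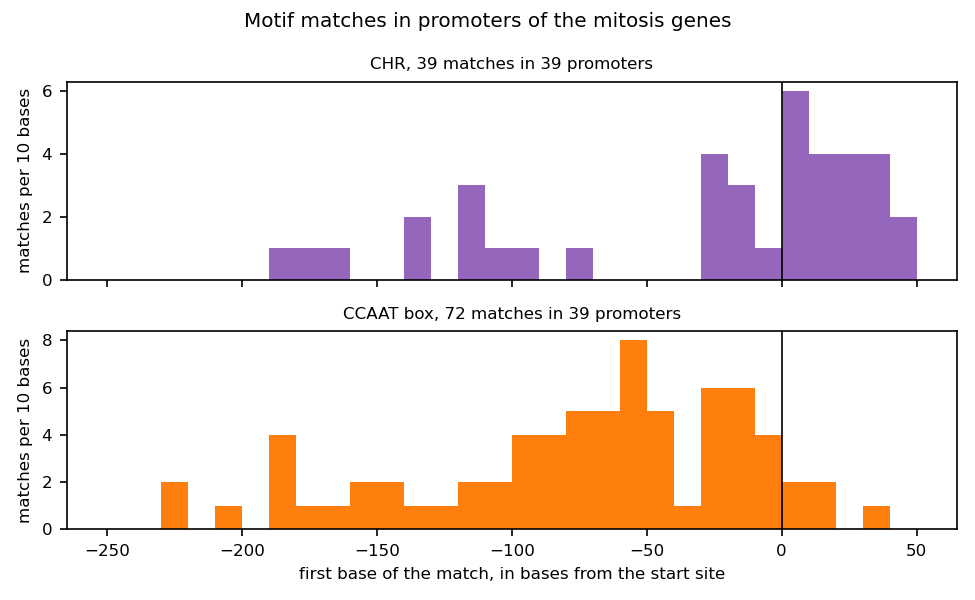
Number of CHR matches (upper panel) and CCAAT boxes (lower panel) per 10 bases in 39 promoters of the mitosis genes, by the distance of the match's first base from the RefSeq start (x axis, bases; vertical line at the start). Of 39 CHR matches 20 lie in the 50 bases after the start, and 47 of 72 CCAAT boxes lie in the 100 bases before it.

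The central comparison asked how transcript levels of late-passage KO cells differed from those of WT cells. The mitosis genes were higher in KO nearly as a block: 42 of 44 were called higher, 0 lower and 2 (Cks2 and Pttg1) in neither direction, in edgeR's quasi-likelihood test with an adjusted p below 0.05. Over all 17233 genes tested, 4.07% were called higher and 4.65% lower (8.72% in either direction). DESeq2 and limma-voom also called 42 members higher, beside 7.55% and 4.11% of all genes. With library totals in place of TMM scaling, 61.7% of the calls over all genes were in the higher direction, rather than 46.6%. In 43 of the 44, all 3 KO libraries lay above all 3 WT libraries, a pattern seen in 17.2% of all genes. Together the 44 took 0.170 to 0.187% of WT counts and 0.273 to 0.340% of KO counts, and their summed level was 1800, 1836 and 1879 CPM (WT) against 2748, 3143 and 3141 (KO). The median difference was 0.74 on the log2 scale (1.67-fold), beside -0.01 over all genes, and the interquartile range of the members was 0.63 to 0.86. In bulk RNA, more cells in mitosis and more of these transcripts per cell cannot be told apart.

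The call count depended on single libraries, while the size of the difference varied less. Without WT day 33 the test called 7 members, without WT day 36 it called 28, without KO day 42 it called 3 (Birc5, Ect2 and Espl1) and without KO day 36 it called 0, while 42 had an unadjusted p below 0.05 in each of these fits. The median log2 difference stayed between 0.70 and 0.81 in the 6 fits that left out 1 library. Calls over all genes were also fewer in those 4 fits, down to 2 of 17708 genes called higher without KO day 36. For the fits that gave 7, 28 and 3 member calls, the shares of all genes called higher were 0.507%, 1.43% and 0.102%. How many of all genes had an unadjusted p below 0.05 was not counted. The 42 members at that threshold therefore have no background.

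**Figure D2:**
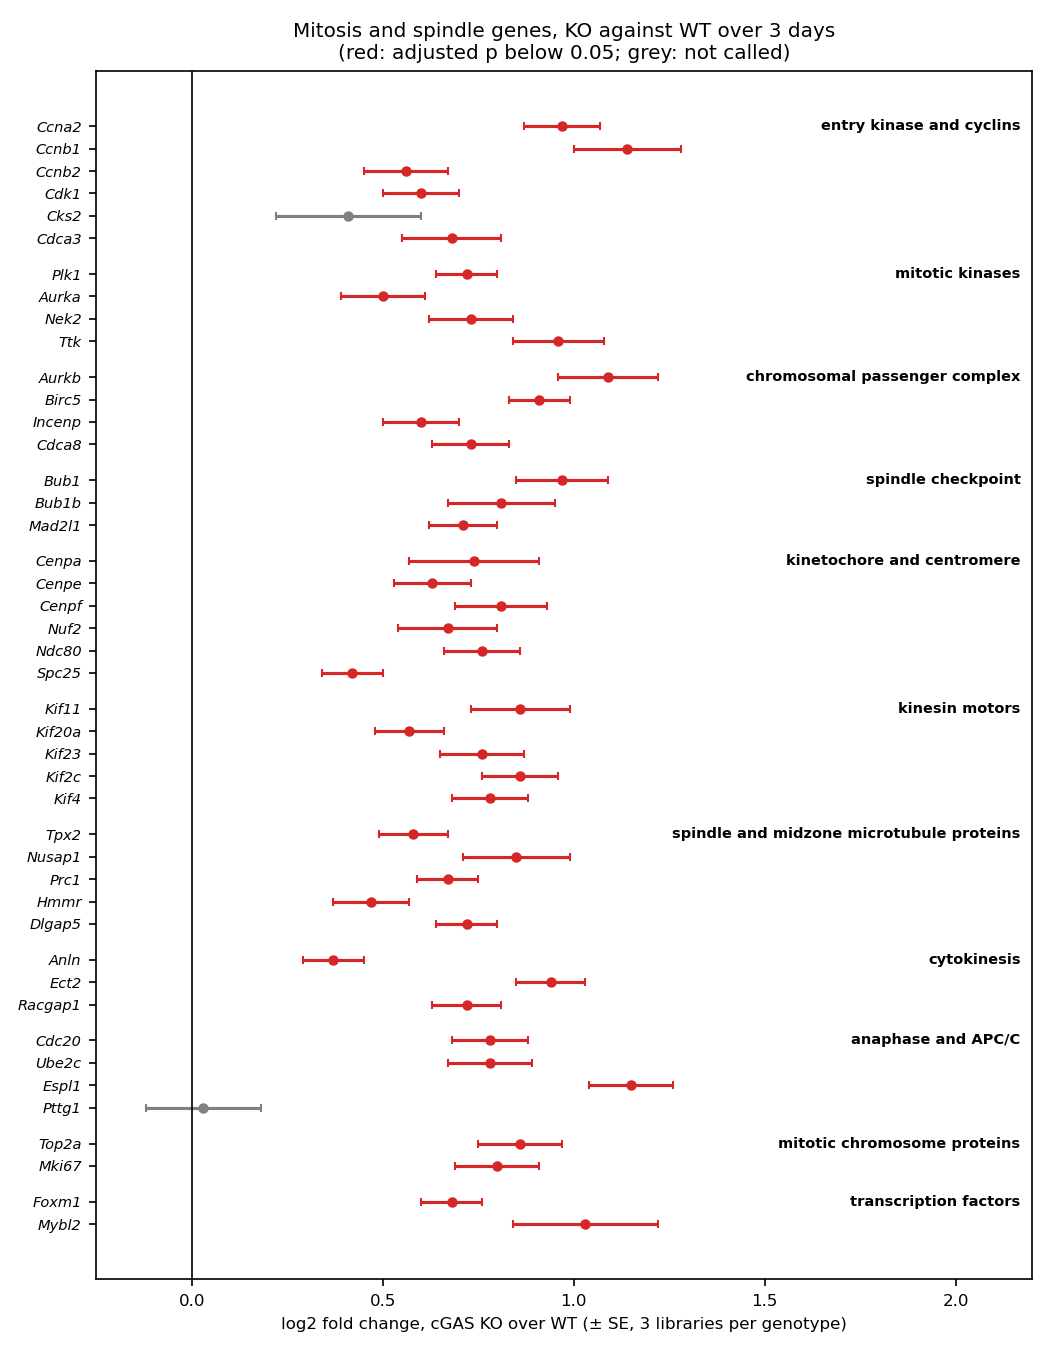
Log2 fold change of KO over WT for each of the 44 mitosis genes (points) with its SE (bars), 3 libraries per genotype, grouped by role. Red genes had an adjusted p below 0.05 and grey ones did not; Espl1 is highest at 1.15 and Pttg1 lowest at 0.03.

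**Figure D3:**
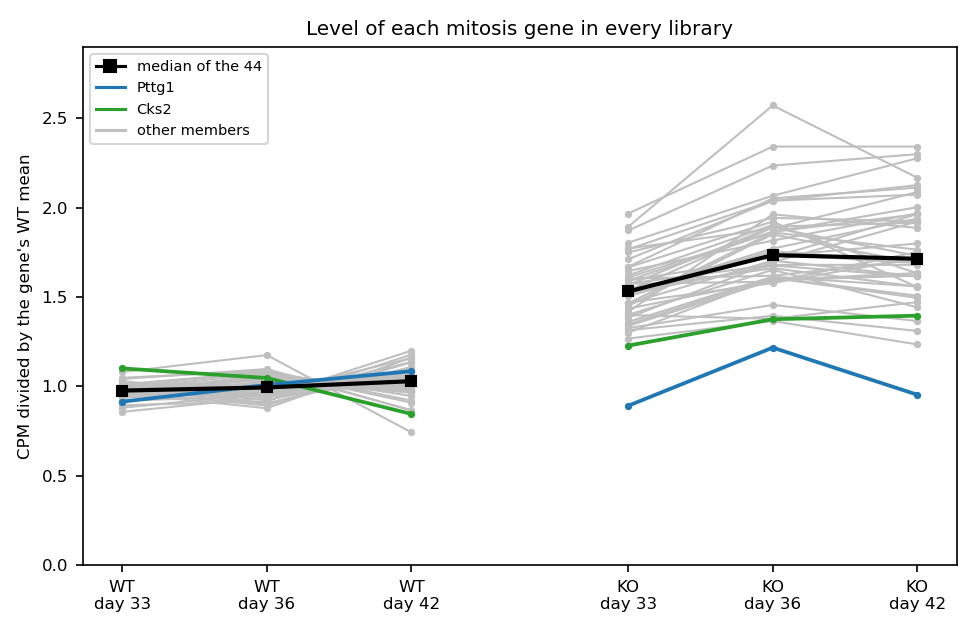
Level of each of the 44 genes (lines) in the 6 libraries, as CPM divided by the gene's mean over the 3 WT libraries. The median (black squares) is 0.976, 0.994 and 1.03 in WT and 1.53, 1.73 and 1.71 in KO, and Pttg1 (blue) overlaps between genotypes.

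Among the genes that trigger mitotic entry, 5 of 6 were higher in KO, and their summed level was 193 ± 9.95 CPM in WT and 322 ± 31.2 in KO (SD, n = 3). Cdk1, the mitotic kinase itself (chr10:69335146-69352938, minus strand, mm10), measured 68.5, 71.8 and 78.9 CPM in the WT libraries of days 33, 36 and 42 against 99.5, 118 and 114 in those of KO. All KO libraries lay above all WT libraries, by 0.60 ± 0.10 (log2, SE; adjusted p = 0.0218). Ccna2, the cyclin A of S phase and G2 (chr3:36564865-36572150, minus strand), measured 57.0, 58.7 and 55.0 CPM in the WT libraries against 97.4, 116 and 121 in the KO libraries. WT hardly varied between days while each KO library was far above it, a difference of 0.97 ± 0.10 (adjusted p = 0.00897). Ccna2 overlaps Exosc9 on the opposite strand, which stood at 35.2 to 39.9 CPM in WT and 37.5 to 38.1 in KO. The B cyclins were both higher in KO, Ccnb1 by 1.14 ± 0.14 and Ccnb2 by 0.56 ± 0.11, as was Cdca3, a trigger of Wee1 degradation, by 0.68 ± 0.13.

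Cks2, a small protein that docks Cdk1 to its substrates (chr13:51645232-51650660, plus strand), was at the floor of the group: 1.64, 1.56 and 1.26 CPM in the WT libraries against 1.83, 2.05 and 2.08 in the KO libraries. The libraries did not overlap, but the difference of 0.41 ± 0.19 was not called (adjusted p = 0.222). Its value is uncertain, since the annotated transcripts hold processed copies such as Gm15452, identical to it over 240 aligned bases and at 0.631 to 1.07 CPM in WT and 0.821 to 1.06 in KO. Ccnb1 is uncertain for the same reason: Ccnb1-ps, 99.2% identical, stood at 0.513 to 0.631 CPM in WT and 0.927 to 1.31 in KO.

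All 4 mitotic kinases were higher in KO, with summed levels of 84.3 ± 2.47 and 136 ± 8.70 CPM. Plk1, the polo-like kinase of centrosomes, kinetochores and midzone (chr7:122159439-122169873, plus strand), measured 21.6, 21.9 and 22.2 CPM in the WT libraries against 34.5, 36.8 and 36.8 in the KO libraries. Both genotypes were flat over the days and well apart, by 0.72 ± 0.08 (adjusted p = 0.00924). Aurka, the kinase of spindle poles (chr2:172356190-172370535, minus strand), had the highest level per length of the 4, 7.29 RPKM on average, with 30.0, 31.6 and 24.9 CPM in the WT libraries against 40.3, 39.7 and 42.4 in the KO libraries. Its difference of 0.50 ± 0.11 was the smallest of the 4 kinases and near the threshold (adjusted p = 0.0419). Ttk, the checkpoint kinase Mps1, differed by 0.96 ± 0.12 and Nek2, which splits centrosomes, by 0.73 ± 0.11.

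The chromosomal passenger complex, which corrects faulty attachments, was higher in KO in all 4 subunits. Birc5, the survivin subunit (chr11:117849251-117855743, plus strand), had the smallest adjusted p of all 44 genes. It measured 21.4, 20.9 and 21.2 CPM in the WT libraries against 37.1, 41.2 and 40.8 in the KO libraries, a spread within WT of under 1 CPM, and differed by 0.91 ± 0.08 (adjusted p = 0.00755). Incenp, the scaffold (chr19:9872296-9899551, minus strand), measured 46.6, 43.5 and 47.1 CPM in the WT libraries against 61.3, 73.0 and 74.2 in the KO libraries. The groups were apart by 0.60 ± 0.10 (adjusted p = 0.0218). The kinase subunit Aurkb differed more, by 1.09 ± 0.13 (2.14 times the WT mean), and borealin, encoded by Cdca8, by 0.73 ± 0.10.

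The 3 spindle checkpoint genes had the highest ratio of summed levels of the 11 roles, 1.81, from 97.4 ± 1.50 CPM in WT to 176 ± 19.6 in KO. Bub1b, encoding the inhibitor BubR1 (chr2:118598211-118641591, plus strand), measured 41.8, 42.1 and 46.4 CPM in the WT libraries against 61.7, 85.4 and 82.1 in the KO libraries. Its KO library of day 33 was lower than the other KO libraries, yet above every WT library, and the difference was 0.81 ± 0.14 (adjusted p = 0.0225). Mad2l1, encoding Mad2 (chr6:66535390-66547220, plus strand), measured 18.2, 18.5 and 19.1 CPM in the WT libraries against 29.3, 29.5 and 32.6 in the KO libraries. It differed by 0.71 ± 0.09 (adjusted p = 0.00999); its processed copy Gm42430, 95.4% identical, stood at 4.02 to 4.64 CPM in WT and 7.39 to 8.06 in KO, so its own value is uncertain. Bub1, the kinetochore kinase that recruits the other checkpoint proteins, differed by 0.97 ± 0.12.

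At the kinetochore and centromere all 6 genes were higher in KO, from 200 ± 10.5 CPM summed in WT to 320 ± 26.8 in KO. Cenpe, the motor that moves chromosomes to the spindle equator (chr3:135212537-135273611, plus strand), measured 62.5, 66.8 and 56.2 CPM in the WT libraries against 88.7, 98.6 and 101 in the KO libraries. The genotypes lay apart on every day and differed by 0.63 ± 0.10 (adjusted p = 0.0175). Ndc80, the microtubule-binding subunit of the complex named for it (chr17:71496100-71526857, minus strand), measured 11.2, 11.4 and 11.8 CPM in the WT libraries against 17.7, 19.9 and 20.7 in the KO libraries. It differed by 0.76 ± 0.10 (adjusted p = 0.0120), with the caveat that 2700099C18Rik, 95% identical over 303 bases, stood at 4.14 to 4.87 CPM in WT and 6.76 to 8.34 in KO. Its partners in that complex differed by 0.67 ± 0.13 (Nuf2) and 0.42 ± 0.08 (Spc25). Cenpf, a large outer kinetochore protein, differed by 0.81 ± 0.12, and Cenpa, the histone variant that marks centromeres, by 0.74 ± 0.17 with an adjusted p of 0.0491, just inside the threshold.

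All 5 kinesins were higher in KO, with summed levels of 210 ± 8.30 and 345 ± 33.9 CPM. Kif20a, a motor of the spindle midzone, had the highest level per length of all 44 genes, 21 RPKM on average, with 78.1, 80.2 and 84.4 CPM in the WT libraries against 109, 130 and 121 in the KO libraries. Its difference was 0.57 ± 0.09 (adjusted p = 0.0187), and it overlaps Cdc23 on the opposite strand (60.1 to 81.3 CPM in WT, 68.7 to 87.6 in KO). Kif2c, the depolymerase MCAK (chr4:117159639-117182639, minus strand), measured 15.9, 16.3 and 17.1 CPM in the WT libraries against 26.4, 30.6 and 32.2 in the KO libraries. The gap between the genotypes was several times the spread within WT, and the difference was 0.86 ± 0.10 (adjusted p = 0.0101). Kif11, the Eg5 motor that pushes spindle poles apart, differed by 0.86 ± 0.13, Kif23, the midzone motor MKLP1, by 0.76 ± 0.11, and Kif4, a chromosome-bound motor, by 0.78 ± 0.10. Kif4 lies on the X chromosome (chrX:100625737-100727214, plus strand), and the genotypes differed in Xist; its opposite-strand neighbour Pdzd11, also on X, stood at 40.1 to 44.6 CPM in WT and 38.0 to 41.4 in KO.

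The 5 microtubule proteins of spindle and midzone were all higher in KO, from 240 ± 9.34 CPM summed to 369 ± 18.9. Tpx2, the activator of Aurora A on microtubules (chr2:152847964-152895321, plus strand), measured 70.9, 74.3 and 68.9 CPM in the WT libraries against 100, 118 and 103 in the KO libraries. It differed by 0.58 ± 0.09 (adjusted p = 0.0175) without overlap. Dlgap5, the spindle protein HURP (chr14:47387779-47418407, minus strand), measured 32.0, 30.7 and 34.1 CPM in the WT libraries against 51.8, 52.3 and 55.2 in the KO libraries. Its 3 KO libraries were close together, and it differed by 0.72 ± 0.08 (adjusted p = 0.00955). The midzone bundler Prc1 differed by 0.67 ± 0.08, the spindle assembly factor Nusap1 by 0.85 ± 0.14 and Hmmr, a centrosome and spindle protein, by 0.47 ± 0.10.

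Cytokinesis genes had the lowest ratio of summed levels of the 11 roles, 1.45, from 280 ± 4.79 CPM in WT to 407 ± 17.9 in KO, and their largest contributor differed least. Anln, the anillin scaffold of the contractile ring (chr9:22332012-22389188, minus strand), measured 184, 185 and 179 CPM in the WT libraries against 232, 250 and 226 in the KO libraries. Even so, no library overlapped, and the difference of 0.37 ± 0.08, the smallest among the called genes, passed the threshold (adjusted p = 0.0404). Ect2, the exchange factor that activates RhoA at the cell equator (chr3:27097222-27153878, minus strand), measured 40.6, 44.4 and 41.3 CPM in the WT libraries against 74.6, 79.3 and 87.9 in the KO libraries. It differed by 0.94 ± 0.09 (adjusted p = 0.00897), and its centralspindlin partner Racgap1 by 0.72 ± 0.09.

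The anaphase genes held both the largest difference of the 44 and the smallest, in a pair of proteins that bind each other. Espl1, separase, the protease that opens cohesin (chr15:102296266-102324357, plus strand), measured 20.7, 20.6 and 23.4 CPM in the WT libraries against 42.5, 50.6 and 50.6 in the KO libraries. All KO libraries were far above WT, by 1.15 ± 0.11 (2.22 times the WT mean, adjusted p = 0.00824). Pttg1, securin, the inhibitor that holds separase inactive (chr11:43420250-43426251, minus strand), measured 11.8, 13 and 14.0 CPM in the WT libraries against 11.5, 15.7 and 12.3 in the KO libraries. Its groups overlapped and differed by 0.03 ± 0.15 (adjusted p = 0.927); its single-day differences were -0.03, 0.27 and -0.18. Cdc20, the activator of the APC/C (chr4:118432901-118437352, minus strand), measured 16.8, 18.5 and 17.8 CPM in the WT libraries against 28.7, 33.7 and 28.9 in the KO libraries, a difference of 0.78 ± 0.10 (adjusted p = 0.0113). Ube2c, the ubiquitin-conjugating enzyme that works with the APC/C, also differed by 0.78 ± 0.11.

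Both proteins of mitotic chromosomes were higher in KO. Top2a, the topoisomerase that untangles sister DNA (chr11:98992943-99024189, minus strand), measured 158, 146 and 171 CPM in the WT libraries against 260, 287 and 311 in the KO libraries, and differed by 0.86 ± 0.11 (adjusted p = 0.0103). Mki67, which coats chromosomes and is widely used as a proliferation marker, differed by 0.80 ± 0.11. Of the transcription factors that drive this program, Foxm1 (chr6:128362967-128376146, plus strand) measured 51.3, 57.4 and 52.7 CPM in the WT libraries against 81.8, 90.2 and 86.9 in the KO libraries. It was higher by 0.68 ± 0.08 (adjusted p = 0.0103), without overlap. Mybl2, which encodes B-Myb, differed by 1.03 ± 0.19, with the widest SE of the group beside Cks2.

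Within the group the differences were narrower than among genes at large: their SD was 0.21 on the log2 scale, against 0.75 over all genes tested, of which many have lower counts. The lowest count of a member in any library was 44 and the highest 12274. Levels per length ranged from 1.26 RPKM for Ccnb1 and 1.33 for Cks2 to 20.4 for Anln and 21 for Kif20a, averaged over all libraries.

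On single days, with 1 library per genotype and no test, the same direction was seen on each. At least 1.5-fold higher in KO were 31 members on day 33 (8.24% of all genes), 38 on day 36 (10.9%) and 33 on day 42 (11.5%), and 0 members were at least 1.5-fold lower on any day (11.8, 13.5 and 16.8% of all genes). The median log2 CPM difference was 0.67, 0.81 and 0.74. On all 3 days 43 members were higher by any amount (27.1% of all genes) and 28 by at least 1.5-fold (2.91%); Pttg1 was the exception to the first. The largest difference fell on day 36 for 31 members and on day 42 for 13, which was not counted over all genes. At the extremes stood Mybl2 on day 42, with a difference of 1.61, and Ccnb1 and Aurkb on day 36, with 1.35 and 1.31.

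**Figure D4:**
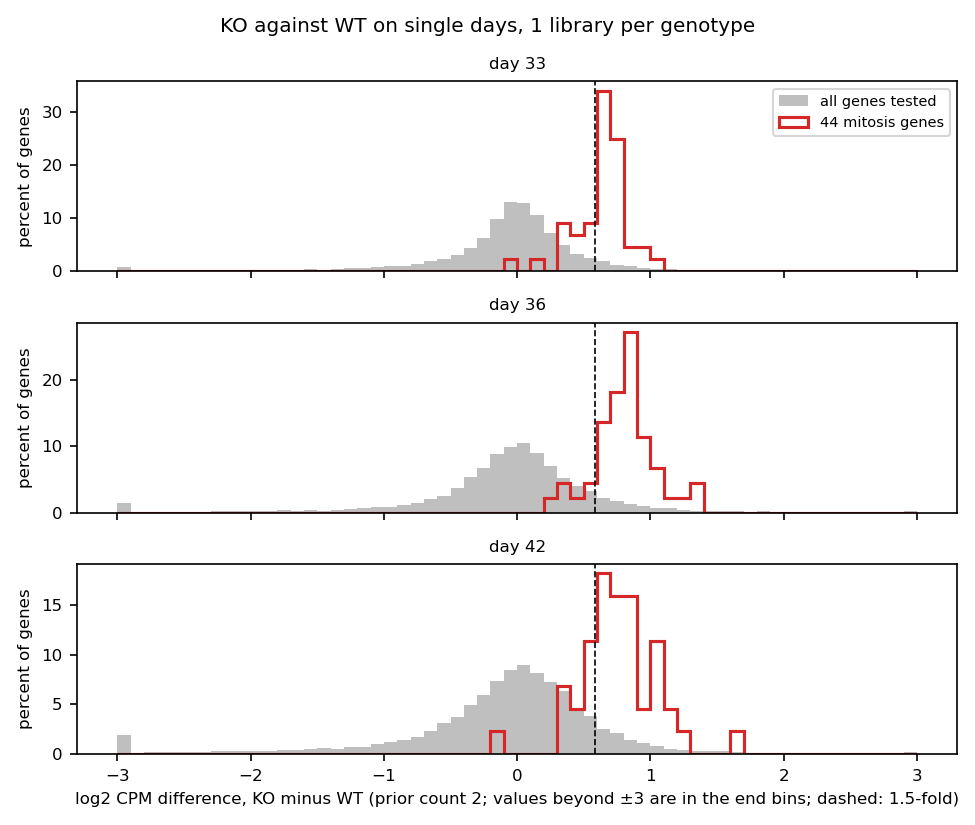
Distribution of log2 CPM differences, KO minus WT, on each day for the 44 mitosis genes (red outline) and all 17233 genes tested (grey), in percent of genes; the dashed line marks 1.5-fold. The medians of the mitosis genes are 0.67, 0.81 and 0.74, to the right of the bulk of all genes on each day.

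Over time, the question was whether these genes changed between day 33 and day 42. In a model of both genotypes, 0 members were called for a trend by edgeR (0% of all genes); 4 had an unadjusted p below 0.05 (14.7% of all genes), limma-voom called 0 and DESeq2 called 1 rising, Cenpa (0.957% of all genes rising and 1.74% falling in DESeq2). The fitted trend was positive for 35 of 44, with a median of 0.12 over 9 days. Among all genes it was positive for 8636 of 17233, with a median of 0.00. Without the KO library of day 33 it was positive for 26 members, with a median of 0.03. Cenpa had the smallest p: 22.3, 24.4 and 31.2 CPM in the WT libraries against 36.0, 44.1 and 50 in the KO libraries, a fitted change of 0.47 ± 0.10 over 9 days (adjusted p = 0.268). Its order of days was the same in both genotypes. The next were Cenpf with 0.31, Nusap1 with 0.33, Kif11 with 0.28 and Nuf2 with 0.27 over 9 days.

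A difference in trend between genotypes was tested by the interaction of genotype and day. Again edgeR called 0 members (0% of all genes), with 1 at an unadjusted p below 0.05 (7.74% of all genes), and DESeq2 and limma-voom called 0. That member was Mybl2, with 10.3, 11.2 and 7.08 CPM in the WT libraries against 17.2, 19.7 and 21.7 in the KO libraries, whose trend was 0.92 ± 0.32 higher in KO over 9 days (adjusted p = 0.627). The value rested on the WT library of day 42: without it the difference in trend was -0.07. The next 4 were Bub1 (0.51 ± 0.23), Mki67 (0.42 ± 0.22), Aurka (0.38 ± 0.22) and Ccna2 (0.34 ± 0.21). Without WT day 42, those of Mki67 and Aurka were -0.04 and -0.14. Over all members the median difference in trend was 0.05 over 9 days, and also 0.05 without WT day 42. It depended more on KO libraries, at 0.53 without KO day 42 and -0.14 without KO day 33. Described without a test, the KO library of day 33 was never the highest KO library: the highest was day 36 for 23 members and day 42 for 21. The highest KO day was not counted over all genes. The ratio of highest to lowest day had a median of 1.12 in WT and 1.19 in KO, beside 1.3 and 1.25 over all genes.

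Neighbouring parts of the mitotic machinery were examined through lists of further genes, which share the genotype comparison and its background given above. Of 12 genes of the mitotic entry switch, 8 were higher and 0 lower (median log2 0.62), with the smallest adjusted p in Melk, a kinase of the same transcription program (20.0 ± 0.547 to 40.8 ± 4.85 CPM, 1.03 ± 0.11), and in the Cdk1 inhibitor Wee1, whose difference was smaller (0.57 ± 0.08); genes of this and the next lists are named by adjusted p, not by size. Of 19 centromere assembly and inner kinetochore genes 11 were higher (median 0.62), with Cenpi, an inner kinetochore subunit, at 0.84 ± 0.10. Of 19 outer kinetochore genes 10 were higher (median 0.65), among them Sgol1, the cohesin protector shugoshin, at 0.93 ± 0.11 and Ska3, of the microtubule-tracking Ska complex, at 0.83 ± 0.10. The condensin list, whose proteins compact chromosomes, was higher in 6 of 8 genes with a median of 0.87; Smc4 went from 106 ± 5.06 to 200 ± 4.37 CPM (0.91 ± 0.08) and Ncapg2 differed by 0.83 ± 0.11. Of 25 other motors and spindle proteins 13 were higher (median 0.50), including Kif18a at 1.01 ± 0.08 and Kif20b at 0.75 ± 0.08.

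In 4 lists fewer than 5 genes were called. Of 12 cohesin genes 3 were higher (median 0.29): Esco2, which acetylates cohesin in S phase, at 0.90 ± 0.12, and Cdca5, sororin, at 0.96 ± 0.15 had the smallest adjusted p. Of 12 centriole and centrosome genes 4 were higher (median 0.39), with the smallest adjusted p in Sass6 (0.62 ± 0.11) and Pcnt (0.55 ± 0.10). Of 15 APC/C subunits and regulators only Fbxo5, the APC/C inhibitor Emi1, was called (10.9 ± 1.13 to 23.7 ± 2.64 CPM, 1.13 ± 0.13); the list's median was 0.12, and the subunit Anapc5 at 0.36 ± 0.10 was not called (adjusted p = 0.0815). Of 11 DREAM and MuvB genes 2 were higher (median 0.23), the pocket protein Rbl1 at 0.84 ± 0.10 and Lin9 at 0.59 ± 0.11. By contrast, genes of DNA replication and its licensing, listed as an S phase comparison, were higher in 22 of 31 (median 0.65). Among them were Mcm10 at 1.02 ± 0.11 and Lig1 at 0.84 ± 0.10. The single-day medians of this list were 0.47, 0.66 and 0.83. Over the 164 genes of these 10 lists edgeR called 80 higher and 0 lower, with 118 and 1 (Ensa, an entry switch gene named after its value was seen) at an unadjusted p below 0.05; DESeq2 called 101 and 0 and limma-voom 79 and 0. Leaving out the WT library of day 33 or 36 left 12 or 36 higher calls, and leaving out that of KO on day 36 or 42 left 0 or 3 (108 and 107 at an unadjusted p below 0.05). Calls over all genes in these fits are given above, while genes at an unadjusted p below 0.05 were not counted over all genes.

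The transcript table showed whether the same transcripts carried the counts in both genotypes. Of the 44 genes, 18 had 1 transcript with at least 10% of the gene's counts and 26 had more. Among 95 transcripts compared without a test, the largest difference in share was in Ect2. Its transcript ENSMUST00000108300 held 48.0, 49.9 and 35.6% in WT and 57.5, 61.4 and 60.1% in KO (44.5 ± 7.77% and 59.7 ± 1.96%). Shares of this gene, with 13 transcripts listed, varied widely between days. ENSMUST00000184113 held 22.5, 31.5 and 12.0% in WT and 4.64, 17.7 and 6.76% in KO. Ccnb1 is a typical case: ENSMUST00000091295 held 58.6 ± 1.13% in WT and 57.5 ± 1.36% in KO. Shares of near-identical transcripts are estimates of the authors' counting and were split evenly in some genes, such as 3 transcripts of Aurka at 33.0 ± 0.194% each in WT.

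**Figure D5:**
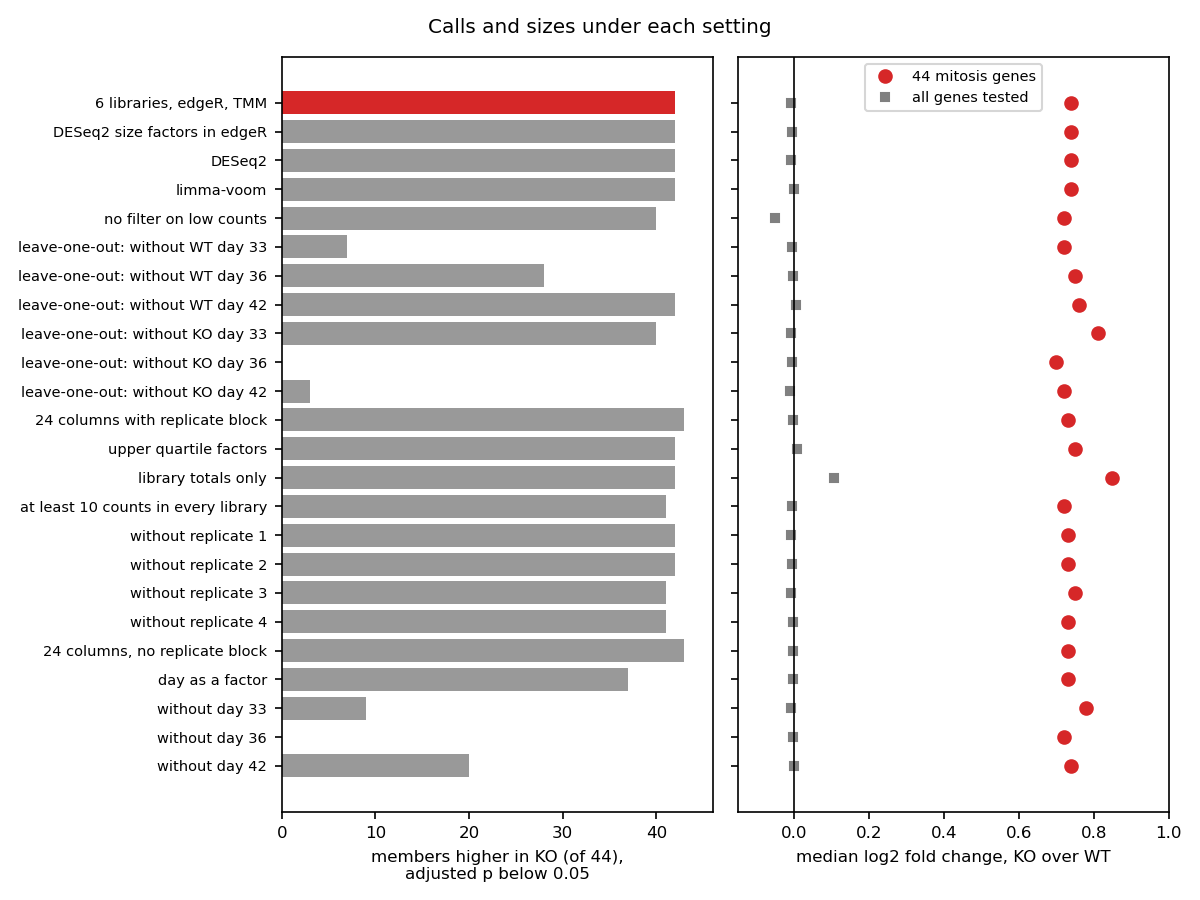
Left, number of the 44 mitosis genes called higher in KO (adjusted p below 0.05) under each setting; right, median log2 fold change of the 44 genes (red circles) and of all genes tested (grey squares) under the same settings. The number falls to 0 without KO day 36 and to 7 without WT day 33, while the median log2 of the 44 lies between 0.70 and 0.85 throughout.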

How the data were processed

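Bulk MEF RNA had been made into stranded, poly(A)-selected libraries, per the labels' protocols. The authors deposited 1 table of genes and 1 of transcripts, both with estimated counts before any scaling, per the file headers; the values are not whole numbers. The gene table's RPKM, also deposited by the authors, served only to compare levels between genes. In the transcript table, 24 columns with values of single samples were left aside. Per the submitters' processing notes, mm10, Bowtie2 2.2.1 and limma 3.18.13 were used, without their roles; for the counting program, annotation and strand setting, a name is not given in the sources used here. Antisense overlaps and near-identical copies (searched at 95% identity over at least 200 bases, found for 12 of the 44 members) therefore leave values uncertain.

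The 4 columns of each genotype and day were summed and rounded. Of 28938 genes with a count, 17233 passed filterByExpr and were tested in R 4.3.3 with edgeR 4.0.16 (TMM, genotype as the term of a robust quasi-likelihood test, Benjamini-Hochberg adjustment over all genes, threshold 0.05). Each SE was taken from the log2 fold change and the test's F statistic. Day trends added day as a number, and the interaction genotype by day. Single days used log2 CPM, scaled by TMM, with a prior count of 2 and a 1.5-fold threshold, since 1 library a group allows no test. The edgeR models of genotype, day trend and interaction were run on simulated libraries, with planted changes larger than those seen in the members. The single-day comparison and the alternatives named next were not simulated. As alternatives served DESeq2 1.42.0, limma-voom from limma 3.58.1, other scalings and filters, leaving out libraries, days or numbered columns, day as a factor, and 24 separate columns with and without a replicate block.

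Gene coordinates are from GENCODE M21 (mm10), promoters from RefSeq (GRCm38.p6). Values in every library are given for the member of each role with the highest level per length, that with the smallest adjusted p, and those not called; up to 2 genes of each further list and 5 members in each time test were named by smallest p. The members and lists were chosen with earlier results of these data known. A further gene and a sequence that these rules select are not reported here.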

Additional observations from a re-analysis of the deposited data

How the results depend on the processing

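In the comparison of KO with WT, 42 members were also called higher with DESeq2, limma-voom, DESeq2 size factors, upper quartile factors or library totals, 40 without a filter on low counts, 41 with at least 10 counts in every library and 37 with day as a factor. With library totals the median log2 difference was 0.85, but that of all genes was 0.107, and relative to it the members' median was 0.75. Leaving out 1 library gave 0 to 42 calls and a median of 0.70 to 0.81 (0.81 without KO day 33), as described in the report; these fits have fewer libraries and called fewer genes overall except without WT day 42 or KO day 33. Leaving out day 33, 36 or 42 in both genotypes gave 9, 0 and 20 calls, beside 0.777, 0 and 1.37% of all genes called higher. An unadjusted p below 0.05 was reached by 41 members without day 36, and the share of all genes there was not counted. Over the fits without 1 library Pttg1 ranged from -0.11 to 0.12; it changed sign, to -0.03 without WT day 33, -0.11 without KO day 36, -0.11 without day 36 and -0.01 without replicate 3; the cause was not tested. In the interaction without WT day 42, Mybl2, Mki67 and Aurka were at -0.07, -0.04 and -0.14, and their highest values without another library were 1.32, 0.72 and 0.60. With 2-fold in place of 1.5-fold, 1, 7 and 9 members passed on days 33, 36 and 42. The share of all genes past 2-fold was not counted, so these counts have no background. In the 250 bases before the start alone, 33.3% of member promoters held a CHR (17.1% of all promoters).

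The replicate numbers were not treated as pairs in the main fits. Deviations of same-numbered columns correlated at -0.0284 to 0.0552. Their median was 0.00975, beside -0.00433 for columns of different numbers. Of 24 columns, 13 correlated best with their own number, and whether the numbers share a weak effect was not tested. A fit of the 24 columns with the replicate block called 43 members higher in KO, beside 27.1% of all genes. Without the block it also called 43, beside 28.1% of all genes. With the block 19 members were called for a rising trend over days (23.9% of all genes), where DESeq2 on 6 libraries called 1. In the interaction it called 7 rising and 1 falling (17.5% and 19.4% of all genes). The p-values of these 24-column fits measure sampling noise within libraries. Depth limits Cks2 most, the only member with fewer than 100 counts in a library (44 at the lowest).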
